A study of Mus musculus with 16 samples.

Results

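The early response of mouse epidermis to ultraviolet B (UVB) was read from the 4 epidermis libraries that the labels place at week 2, out of 16 libraries in the series. UVB 0 and UVB 1 came from mice exposed to UVB for 2 weeks at 60 mJ/cm2 in 2 sessions a week, and control 0 and control 1 from mice that received no agent over the same 2 weeks. All were female SKH-1 mice, an outbred stock without a lasting coat through a mutation in the hairless gene, which exposed and control mice share. The 8 epidermis libraries of weeks 15 and 25, also 2 UVB and 2 control at each week, entered the fit so that 12 libraries shared 1 estimate of spread, and serve below as the later time points. Age, the interval between the last exposure and sampling, and the way epidermis was separated are not given in the labels used here. Nor do the labels state whether the libraries of a group are separate animals, so a p-value here measures the spread between samples that may be technical replicates.

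UVB photons are absorbed by DNA and join neighbouring pyrimidines, and a keratinocyte answers such lesions with nucleotide excision repair and with the transcription factor p53, which drives genes of arrest, repair and cell death. Skin that survives an exposure enters a regenerative phase in which basal keratinocytes divide, the epidermis thickens and stress keratins and protease inhibitors appear. In the epidermis of hairless mice, remnants of hair follicles also contribute RNA of shaft and root sheath cells, and the level of that RNA depends on the hair cycle as well as on how much follicle a preparation holds.

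Deposited counts per gene summed to 5752354 in UVB 0 and 6031807 in UVB 1, against 5696910 in control 0 and 2905165 in control 1. Of 24421 genes, 13478 were tested, and 1090 (8.09%) were called higher and 1313 (9.74%) lower with UVB at an adjusted p under 0.05 by the quasi-likelihood F test of edgeR, with p-values adjusted by Benjamini and Hochberg's method, the source of every adjusted p below. Of these, 617 and 928 changed at least 2-fold. The median gene moved by -0.03 on the log2 scale. Both UVB libraries stood above both controls in 30.1% of tested genes and below both in 30.3%, so groups that do not overlap are common. The calls depend on single libraries, most on UVB 1: 125 of the 2403 calls were made again without UVB 1 and 939 without control 1, against 971 without UVB 0 and 1990 without control 0. The fits that left out each week 2 library in turn all called 69 of the genes up and 53 down, and below these are said to hold without any 1 library.

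Control 1 stood apart in a way that depends on abundance. The authors removed duplicate reads before counting, and in every week 2 library the highest gene with at least 500 bases of exon held 1.83 to 2.00 counts per base, whatever the depth. Genes above 1 count per base were 0.89 higher on the log2 scale in control 1 than in control 0 (median of 177 genes), and genes at 0.02 to 0.1 counts per base were 0.23 lower (4265 genes). With UVB over control the abundant genes had a median of -0.55, and -0.05 once control 1 was left out. Of the 177 genes, 13 were called lower and 0 higher. Nuclear and other RNAs that mark RNA quality summed to 2951 and 3351 CPM in UVB, against 2753 and 4951 CPM in control libraries, with 0 of 8 called by edgeR, 1 higher and 2 lower at an unadjusted p under 0.05, and 1 higher and 1 lower by DESeq2. Changes of abundant genes given below are therefore shown with control 1 by its own value.

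**Figure D1:**
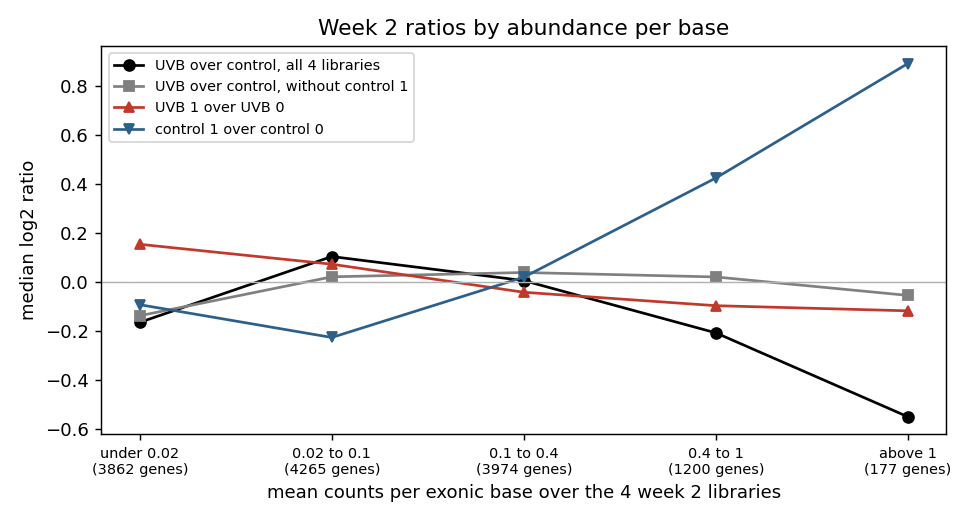
Median log2 ratio of tested genes (vertical axis) in 5 ranges of mean counts per base of exon (horizontal axis), for UVB over control with all 4 libraries and without control 1, for UVB 1 over UVB 0 and for control 1 over control 0. Above 1 count per base, control 1 stood 0.89 above control 0, and UVB over control lay at -0.55 with all 4 libraries and at -0.05 without control 1.

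Keratinocyte markers were abundant in all 4 libraries. Krt5 and Krt14 are the keratins of the basal layer. Krt5 had 462 and 511 CPM (counts scaled to a common library size by TMM) in UVB 0 and UVB 1, against 351 and 275 CPM in control 0 and control 1, and Krt14 had 518 and 508 CPM in UVB against 428 and 440 CPM in control libraries. Krt10, a keratin of the suprabasal layers, had 659 and 598 CPM in UVB and 668 and 1264 CPM in control libraries. The labelled tissue was thus carried by its defining genes, with control 1 highest for the suprabasal ones.

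The clearest p53 target was Eda2r, a receptor of the tumour necrosis factor family (mm10 chromosome X, 97333841 to 97377209). It had 77.1 and 87.0 CPM in UVB libraries, against 2.69 and 5.40 CPM in controls, a rise of 4.46 ± 0.37 on the log2 scale (fitted UVB over control ± standard error, as for every log2 value below; adjusted p = 0.00129, edgeR). Ccng1, cyclin G1, which recruits a phosphatase to Mdm2 (chromosome 11, 40748552 to 40755286), had 171 and 243 CPM in UVB and 46.3 and 36.9 CPM in control libraries (2.30 ± 0.22, adjusted p = 0.00129). The BH3-only death gene Pmaip1, also called Noxa, had 81.7 and 85.2 CPM in UVB, against 21.5 and 12.0 CPM in controls (2.26 ± 0.33, adjusted p = 0.00417). In none of these did the groups overlap, and each holds without any 1 library.

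Of 47 p53 targets listed, 46 were tested, 12 rose and 1 fell, against 8.09% and 9.74% of all genes, and their median was 0.33 on the log2 scale against -0.03 for all genes. Among 14 genes of feedback and signalling 5 rose. They included Phlda3, which restrains Akt (103 and 122 CPM in UVB, 69.8 and 63.5 CPM in control libraries), and Zmat3, an RNA-binding protein (134 and 150 CPM in UVB, 106 and 82.2 CPM in control). Of 12 cell death genes 3 rose, among them Apaf1, the core of the apoptosome, at 11.7 and 24.8 CPM in UVB against 4.13 and 2.08 CPM in control libraries (2.45 ± 0.52, adjusted p = 0.0119). The death receptor Tnfrsf10b had 9.21 and 19.9 CPM in UVB and 5.02 and 1.66 CPM in control libraries (1.98 ± 0.50, adjusted p = 0.0235). Polk, a polymerase that copies past damaged bases, rose by 1.04 ± 0.26, and Fancc, of the crosslink repair core, fell by 1.47 on the log2 scale. Ckap2 and Gtse1, which act on spindle microtubules and are mitotic genes as well as p53 targets, rose by 2.73 ± 0.42 and 2.22 ± 0.50.

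Several well known p53 targets were not called. Cdkn1a, the p21 inhibitor of cyclin-dependent kinases (chromosome 17, 29090986 to 29100722), had 354 and 364 CPM in UVB libraries, against 330 and 381 CPM in controls, a difference of 0.02 ± 0.14 (adjusted p = 0.946, edgeR), and the groups overlapped. Mdm2, the ligase that removes p53, had 154 and 171 CPM in UVB and 120 and 154 CPM in control libraries (0.25 ± 0.16, adjusted p = 0.293). Bax, Bbc3, Fas, Btg2, Sesn2, Plk2, Ppm1d, Xpc and Ddb2 were not called either. Cdkn1a is 1 of 3 listed targets above 1 count per base in some library, near the ceiling described above. Without UVB 1 the rise was called for 4 of these targets, without control 1 for 6, and without control 0 for 19.

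**Figure D2:**
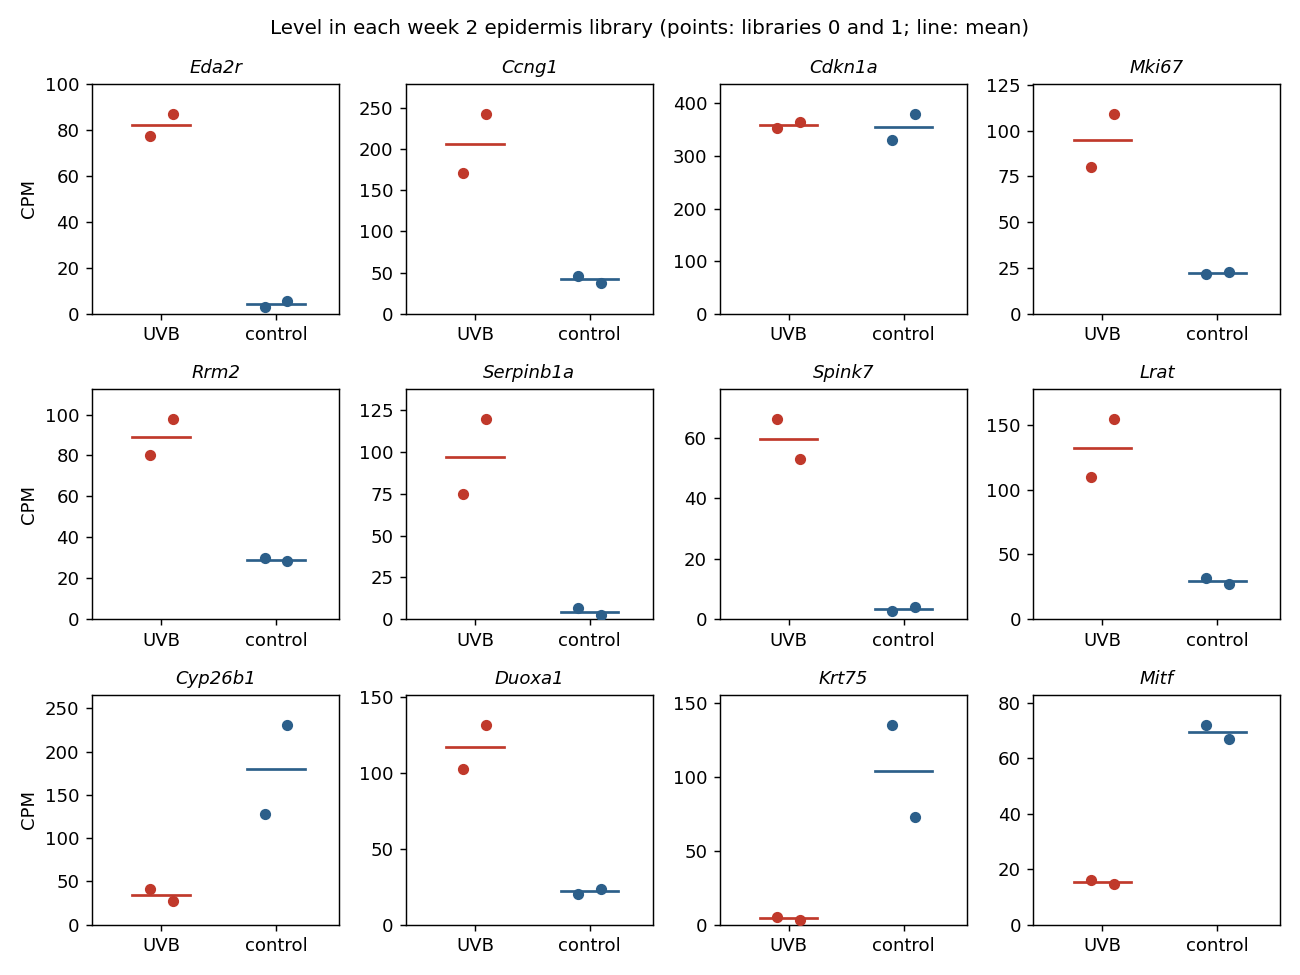
Level in CPM of 12 genes in each week 2 library, 1 panel a gene on a linear axis from 0, with UVB libraries left of controls, a point for each library and a line at the group mean. Eda2r, Ccng1, Mki67, Rrm2, Serpinb1a, Spink7, Lrat and Duoxa1 stood higher in both UVB libraries and Cyp26b1, Krt75 and Mitf lower, whereas Cdkn1a overlapped at 354 and 364 CPM in UVB and 330 and 381 CPM in control libraries.

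Genes of cell division had the highest share of risen members of any list examined. Of 62 mitosis genes 51 rose and 1 fell (82.3% and 1.61%, against 8.09% and 9.74% of all genes), with a median of 2.32 on the log2 scale, and summed over the list they had 1433 and 1903 CPM in UVB, against 617 and 610 CPM in control libraries. UVB libraries lay above both controls for 57 of the 62 genes and below for 4, against 30.1% and 30.3% of all tested genes. Of 49 replication and S phase genes 28 rose and 1 fell, with a median of 1.0 and summed levels of 1321 and 1692 CPM in UVB and 912 and 897 CPM in control libraries. UVB 1 had the higher sum in both lists. Without it 7 mitosis and 2 replication genes were called up, and without control 1 the counts were 37 and 8.

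Promoters of mitotic genes commonly carry a cell cycle homology region, TTTGAA, near CCAAT boxes. The stretches below, the 120 bases before the start of 4 called mitosis genes from RefSeq promoters on GRCm38.p6 (mm10), are shown to let these letters be seen beside the values. Capitals mark TTTGAA and CCAAT on either strand, and all 4 genes lie on the minus strand.
Cdc20 (chr4:118437344-118437463): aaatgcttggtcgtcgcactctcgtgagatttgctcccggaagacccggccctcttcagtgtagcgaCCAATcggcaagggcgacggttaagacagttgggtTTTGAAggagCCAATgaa
Cdk1 (chr10:69352913-69353032): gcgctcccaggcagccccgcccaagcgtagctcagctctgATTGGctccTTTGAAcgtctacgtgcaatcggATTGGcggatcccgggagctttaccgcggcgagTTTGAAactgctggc
Top2a (chr11:99024190-99024309): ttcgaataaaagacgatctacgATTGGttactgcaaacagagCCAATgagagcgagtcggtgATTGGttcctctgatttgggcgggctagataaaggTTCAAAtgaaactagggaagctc
Ccnb2 (chr9:70421555-70421674): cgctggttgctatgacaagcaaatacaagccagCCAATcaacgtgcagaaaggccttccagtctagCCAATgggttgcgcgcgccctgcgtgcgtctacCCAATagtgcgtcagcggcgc
Over 250 bases before the start, TTTGAA stood in 39.5% and CCAAT in 69.8% of 43 promoters matched to 40 of the 51 risen mitosis genes. Both were present in 32.6%. Over 12948 promoters of 10217 tested genes the shares were 10.9%, 34.7% and 4.01%. CCAAT was as common elsewhere, in 66.7% of 24 promoters of risen replication genes and 60% of 10 of risen p53 targets. TTTGAA stood in 16.7% and 10% of these. In 44 promoters of fallen keratin-associated protein genes TTTGAA stood in 25% and CCAAT in 31.8%. In these 4 examples Ccnb2 has no TTTGAA and 3 CCAAT boxes.

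Cyclins and kinases rose in 14 of 18 cases (77.8%, against 8.09% of all genes). Ccnb1, the mitotic cyclin, had 26.4 and 37.9 CPM in UVB and 1.79 and 4.98 CPM in control libraries (3.42 ± 0.56, adjusted p = 0.00521). Its kinase Cdk1 had 38.8 and 49.5 CPM in UVB against 4.84 and 10.4 CPM in controls (2.64 ± 0.52, adjusted p = 0.00926), and the second B-type cyclin Ccnb2 had 19.8 and 27.7 CPM in UVB against 3.41 and 4.57 CPM in controls (2.62 ± 0.46, adjusted p = 0.00672). Cdc20, the activator of the anaphase ligase, had 36.3 and 46.4 CPM in UVB and 9.87 and 6.64 CPM in control libraries (2.27 ± 0.43, adjusted p = 0.00828). No UVB value of these genes reached down to a control value.

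Of 21 genes of chromosome structure and kinetochore 17 rose (81%, against 8.09% of all genes). Mki67, whose product coats mitotic chromosomes and is the usual label of cycling cells (chromosome 7, 135689788 to 135716379), had 80.2 and 109 CPM in UVB, against 21.7 and 22.8 CPM in control libraries (2.09 ± 0.29, adjusted p = 0.00417). Top2a, the topoisomerase that untangles sister chromatids, had 70.7 and 92.2 CPM in UVB and 15.1 and 9.13 CPM in controls (2.68 ± 0.40, adjusted p = 0.00417). The condensin subunits Smc2 and Ncapg rose by 2.83 ± 0.42 and 3.97 ± 0.58. These 4 hold without any 1 library. Hmgb2, an abundant chromatin protein, had 65.7 and 66.3 CPM in UVB and 57.1 and 79.7 CPM in control libraries, which overlapped.

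Spindle and cytokinesis genes rose in 20 of 23 cases (87%, against 8.09% of all genes). Ect2, which sets the cleavage furrow, had 22.1 and 33.3 CPM in UVB against 1.26 and 2.08 CPM in controls (4.15 ± 0.65, adjusted p = 0.00478), and Cep55, of the midbody, had 19.5 and 32.3 CPM in UVB against 2.69 and 2.08 CPM in controls (3.38 ± 0.50, adjusted p = 0.00417). Both hold without any 1 library. Espl1, the separase, was the member that fell, at 29.8 and 24.2 CPM in UVB and 56.9 and 43.2 CPM in control libraries (-0.90 ± 0.27, adjusted p = 0.0429). Ckap2l and Kif4 had lower fitted values with UVB (-0.57 and -0.51) without being called.

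In replication, origin licensing rose in 8 of 12 genes, beside 8.09% of all tested genes that rose and 9.74% that fell. The helicase subunit Mcm3 had 29.6 and 43.7 CPM in UVB and 7.72 and 8.72 CPM in control libraries (2.17 ± 0.38, adjusted p = 0.00633), and Mcm5 had 28 and 50.8 CPM in UVB against 9.87 and 5.40 CPM in controls (2.29 ± 0.45, adjusted p = 0.00915). Of 23 replication fork genes 11 rose. Pcna, the sliding clamp, had 48.9 and 58.4 CPM in UVB against 36.8 and 22.8 CPM in controls (0.82 ± 0.23, adjusted p = 0.0333). Nucleotide supply rose in 6 of 7 genes, among them Rrm2, the regulated subunit of ribonucleotide reductase, with 80.1 and 97.8 CPM in UVB and 30 and 28.2 CPM in control libraries (1.61 ± 0.19, adjusted p = 0.00259), which holds without any 1 library. Within the group of E2F factors and their partners E2f8 rose (36.1 and 43.9 CPM in UVB, 8.43 and 4.98 CPM in control libraries, 2.51 ± 0.36, adjusted p = 0.00417) and E2f2 fell (85.9 and 80.0 CPM in UVB, 164 and 151 CPM in control libraries, -0.92 ± 0.19, adjusted p = 0.00982). Ccnd1, the cyclin that answers growth signals, rose by 1.62 ± 0.39 with UVB 1 (117 CPM) well above UVB 0 (58.8 CPM). Of 11 inhibitors of the cycle 1 was called lower (9.09%, near the share of all genes) and 0 higher. The called one was Cdkn2b, the p15 protein, which had 80.1 and 64.1 CPM in UVB and 105 and 142 CPM in control libraries (-0.77 ± 0.18, adjusted p = 0.0184). Of 16 genes of DNA methylation 4 rose and 0 fell, and without UVB 1 or control 1 there was 1 risen gene. At an unadjusted p under 0.05 by edgeR, 5 of the 16 were higher and 3 lower, and DESeq2 called 5 higher and 2 lower. Dnmt3l, a cofactor of the de novo methyltransferases, had 9.57 and 10.4 CPM in UVB and 1.61 and 1.66 CPM in control libraries (2.6 ± 0.41), and Uhrf1, which brings the maintenance methyltransferase to replicated DNA, had 20.5 and 36.1 CPM in UVB and 9.51 and 7.89 CPM in controls (1.68).

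Of 49 DNA repair genes 16 rose and 1 fell, 32.7% and 2.04% against 8.09% and 9.74% of all genes, and a difference between repair pathways was not tested. Nucleotide excision repair, which removes UVB lesions, had 2 risen genes of 15 (13.3%). Ercc1, of the 5' incision nuclease, had 124 and 126 CPM in UVB, against 53.7 and 51.5 CPM in control libraries (1.25 ± 0.28, adjusted p = 0.0139), and Ercc5, the 3' nuclease, had 81.7 and 103 CPM in UVB against 66.4 and 48.6 CPM in controls (0.67 ± 0.17, adjusted p = 0.0247). Homologous recombination and crosslink repair had 9 risen of 16 (56.2%). Brca1 rose by 1.59 ± 0.44 and Fancd2 by 1.94, whereas Xrcc3 fell (23.2 and 26.8 CPM in UVB, 41.6 and 54.0 CPM in control libraries). Of 10 damage checkpoint genes 3 rose, Chek1, Chek2 and Topbp1, by 1.6, 1.70 and 1.11. Without UVB 1 there were 0 risen repair genes and without control 1 there were 3, so the count for this list rests on those libraries.

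**Figure D3:**
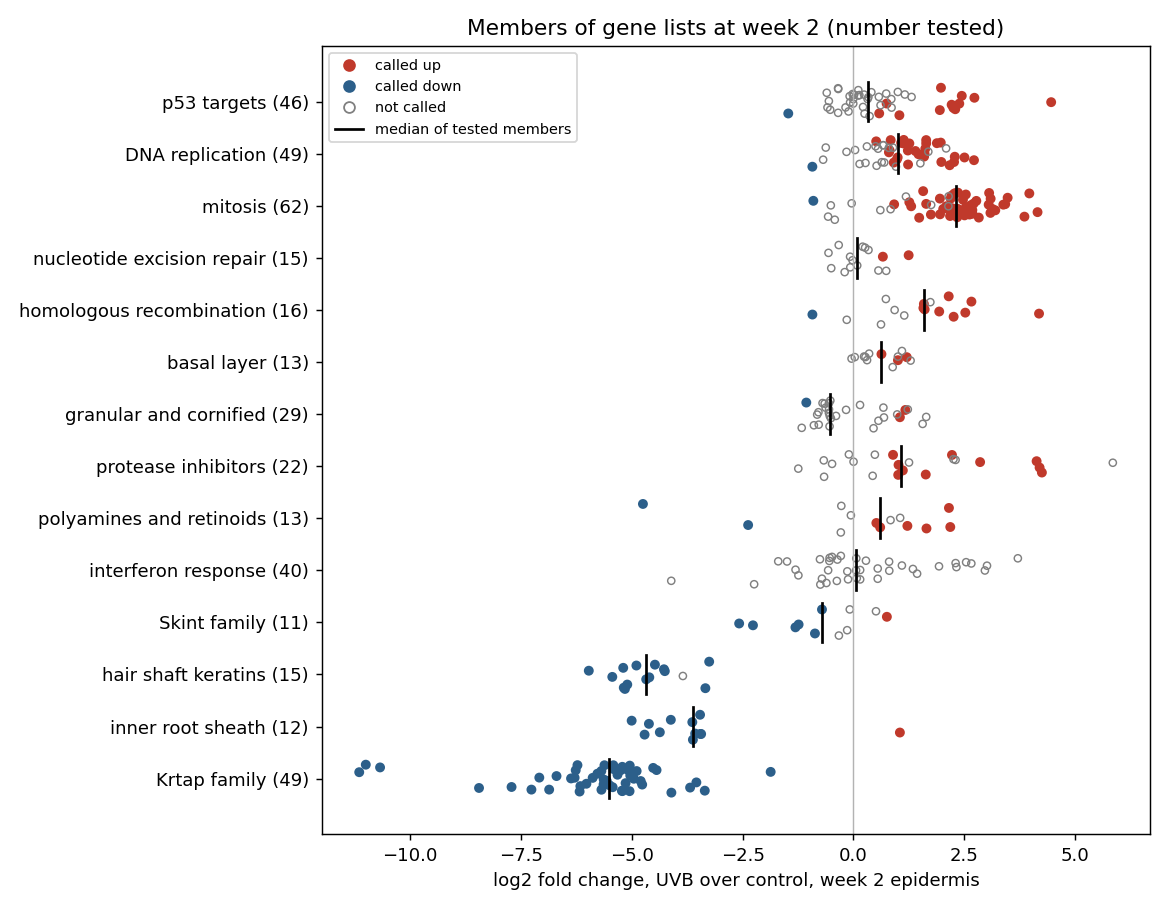
Fitted log2 UVB over control at week 2 (horizontal axis) for each tested member of 14 gene lists, with filled points for called genes, open points for the others and a bar at the list median. Mitosis genes centred on 2.32, p53 targets on 0.33 and Krtap genes on -5.50, against -0.03 for all tested genes.

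The list medians were lowest in genes of the hair follicle. Of 53 tested genes of shaft and root sheath 42 fell and 1 rose (79.2% and 1.89%), with a median of -3.63. All 49 tested keratin-associated protein (Krtap) genes fell, with a median of -5.50. That median was -5.43 with the 4 genes at 0 in both UVB libraries set to their bound. Over all tested genes 9.74% fell and 8.09% rose. Krtap proteins crosslink the keratins of the shaft. Summed over the family they had 322 and 50.8 CPM in UVB 0 and UVB 1, against 4605 and 4468 CPM in control 0 and control 1. A further 4 of the 53 Krtap genes in the table were too low to test, with 0 counts in both UVB libraries and at most 15 in a control library. Near-identical members may share reads, so single Krtap values are uncertain. In bulk RNA fewer follicle cells and less of this RNA per cell cannot be told apart.

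Many Krtap genes are short and compact, and their promoters are shown for what they share. Each stretch is the 120 bases before the start (RefSeq, GRCm38.p6, minus strand), with the TATA box letters TATAAA on the gene's own strand in capitals.
Krtap19-5 (chr16:88896450-88896569): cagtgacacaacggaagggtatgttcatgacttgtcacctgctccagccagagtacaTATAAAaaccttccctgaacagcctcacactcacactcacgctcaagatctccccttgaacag
Krtap10-4 (chr10:77827071-77827190): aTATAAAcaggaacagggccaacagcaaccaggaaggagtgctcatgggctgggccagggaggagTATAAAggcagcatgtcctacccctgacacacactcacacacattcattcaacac
Krtap4-8 (chr11:99780644-99780763): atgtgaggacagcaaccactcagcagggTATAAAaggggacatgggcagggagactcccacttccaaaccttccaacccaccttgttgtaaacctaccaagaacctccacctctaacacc
Over 250 bases before the start, TATAAA stood in 77.3% of 44 promoters matched to 44 of the 49 genes, in 4.66% of the 12948 promoters of all tested genes and in 2.33% of those of risen mitosis genes.

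Krtap19-5 had 0 counts in both UVB libraries and 67.8 and 26.6 CPM in control libraries, at least 217-fold lower with a floor of 3 counts over the group (adjusted p = 0.0168, edgeR). Krtap10-4 had 0.709 and 0 CPM in UVB against 49.3 and 34.5 CPM in controls (-6.86 ± 0.94, adjusted p = 0.004), and Krtap4-8 had 1.77 and 0.163 CPM in UVB against 56.7 and 41.9 CPM in controls (-5.68 ± 0.83, adjusted p = 0.00417). Both hold without any 1 library. At the other end of the family, Krtap3-2 had 56.0 and 27.1 CPM in UVB and 103 and 202 CPM in control libraries (-1.87 ± 0.35). The family sum was higher in UVB 0 than in UVB 1, and without UVB 1 only 5 Krtap genes and 1 of the shaft and sheath genes were called.

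Hair shaft keratins fell in 14 of 15 cases (93.3%, against 9.74% of all genes). Krt86 had 8.15 and 0.653 CPM in UVB, against 216 and 159 CPM in control libraries (-5.44 ± 0.88), and Krt39, of the cuticle, had 0.709 and 0.490 CPM in UVB against 55.8 and 19.9 CPM in controls (-5.97 ± 0.86, adjusted p = 0.00417). The inner root sheath and companion layer fell in 11 of 12 cases (91.7%). Krt75, of the companion layer (chromosome 15, 101563343 to 101573904), had 5.49 and 3.10 CPM in UVB and 135 and 73.1 CPM in control libraries (-4.61 ± 0.55, adjusted p = 0.00259), the only member of these lists other than Krtap genes that was called without UVB 1. Krt71, of the inner root sheath, showed the spread between exposed libraries, at 149 and 8.0 CPM in UVB against 671 and 1022 CPM in controls (-3.43 ± 0.99, adjusted p = 0.0377). Tgm3, the transglutaminase of sheath and cornified layer, was the member that rose, with 332 and 300 CPM in UVB and 204 and 97.6 CPM in control libraries (1.05 ± 0.28, adjusted p = 0.0296).

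Signals and transcription factors of the growing follicle fell in 9 of 16 cases. Shh, the ligand made by growing follicle matrix, had 0 counts in both UVB libraries and 6.28 and 4.15 CPM in control libraries, at least 22.1-fold lower (adjusted p = 0.00679, edgeR). Msx2, a factor of shaft differentiation, had 5.49 and 5.22 CPM in UVB and 35.2 and 12.0 CPM in control libraries (-2.18 ± 0.47, adjusted p = 0.013), Bmp4 fell by 2.01 on the log2 scale and Cux1, a root sheath factor, by 1.35. Of 11 genes of follicle stem cells 1 rose and 2 fell, 9.09% and 18.2% against 8.09% and 9.74% of all genes. Postn rose (151 and 163 CPM in UVB, 85.1 and 68.1 CPM in control libraries) and Plet1, of the upper follicle, fell (30.3 and 33.8 CPM in UVB, 84.3 and 81.4 CPM in control libraries, -1.37 ± 0.27, adjusted p = 0.00914).

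Several markers of cells that lie by the follicle or under the epidermis fell as well, beside 9.74% of all tested genes that fell and 8.09% that rose. The filter left 6 of 9 melanocyte, 13 of 15 fibroblast and 5 of 10 endothelial and mural markers to test. Melanocyte markers summed to 20.2 and 20.1 CPM in UVB, against 92.8 and 81.8 CPM in control libraries, with 3 of 6 fallen. Most of each sum came from Mitf, so it speaks for 1 gene more than for the whole list. Mitf, the master factor of melanocytes (chromosome 6, 97807058 to 98021358), had 16.1 and 14.5 CPM in UVB and 72.1 and 66.8 CPM in controls (-2.18 ± 0.36, adjusted p = 0.00567), and Dct had 0 and 1.14 CPM in UVB against 7.36 and 5.81 CPM in controls. Adipocyte markers summed to 42.0 and 37.2 CPM in UVB against 151 and 167 CPM in controls. Of 9 listed 5 were tested, 0 rose and 1 fell, Fabp4, which made up most of the control sums. It had 9.74 and 1.31 CPM in UVB against 125 and 103 CPM in controls (-4.39 ± 0.66). Of 11 mast cell and basophil markers only 3 were high enough to test, with 0 risen and 2 fallen, and 4 were at 0 in all 4 libraries. The tested ones summed to 1.77 and 3.59 CPM in UVB and 56.7 and 88.4 CPM in control libraries. In controls nearly all of this came from Mrgprb2, so the sum speaks for 1 gene more than for these cells. Fibroblast markers summed to 73.0 and 83.4 CPM in UVB against 107 and 144 CPM in controls (1 up and 4 down of 13), and endothelial ones to 6.55 and 7.67 CPM in UVB against 20.6 and 19.5 CPM in controls (3 down of 5). Muscle markers gave 59.9 and 120 CPM in UVB and 23.7 and 118 CPM in control libraries, with 0 of 13 called, 0 at an unadjusted p under 0.05 and 0 by DESeq2. Without UVB 1, Fabp4 was the only marker of these 6 lists that was called. The part of these cells in the fall of follicle genes was not tested.

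**Figure D4:**
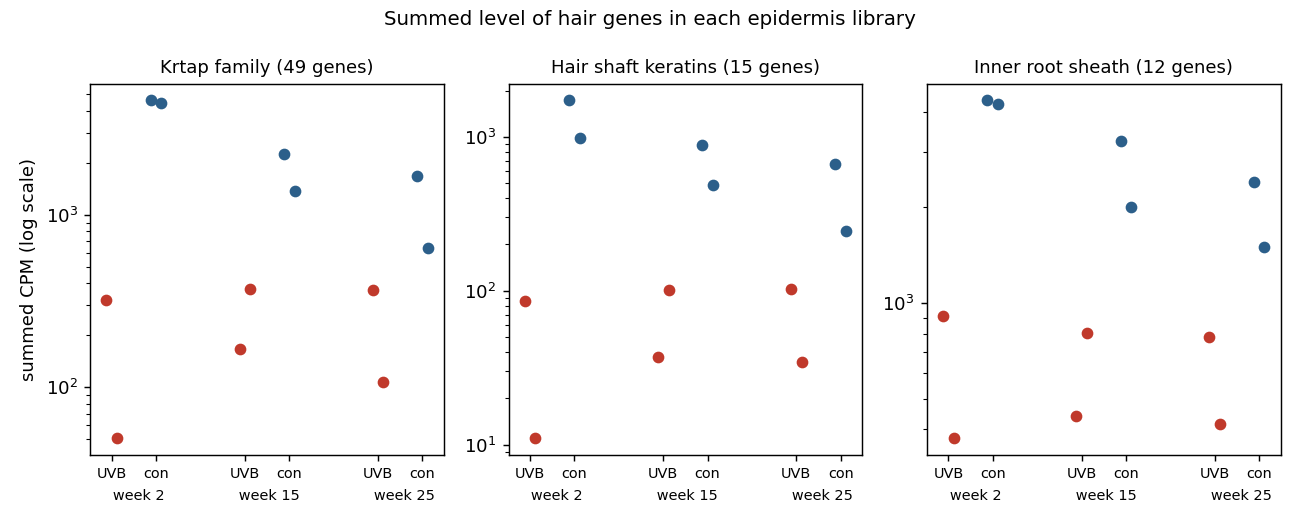
Summed CPM (log axis) of 49 Krtap genes, 15 hair shaft keratins and 12 genes of the inner root sheath and companion layer in each epidermis library at weeks 2, 15 and 25, with UVB libraries left of controls and a point for each library. At week 2 the Krtap sums were 322 and 50.8 CPM in UVB and 4605 and 4468 CPM in control libraries, and both UVB points lay below both controls at each week in all 3 panels.

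Of 22 protease inhibitors of keratinocytes 10 rose and 0 fell (45.5% and 0%, against 8.09% and 9.74% of all genes), with a median of 1.07. Serpinb1a, an inhibitor of neutrophil elastase (chromosome 13, 32842092 to 32851185), had 74.9 and 120 CPM in UVB, against 6.64 and 2.49 CPM in control libraries (4.25 ± 0.48, adjusted p = 0.00251). Spink7, a Kazal-type inhibitor, had 66.3 and 53.2 CPM in UVB and 2.69 and 4.15 CPM in controls (4.20 ± 0.54, adjusted p = 0.00307), and Spink12 had 26.2 and 28.6 CPM in UVB against 4.31 and 2.91 CPM in controls (2.86 ± 0.46). The stefins Stfa1 and Stfa2, inhibitors of cathepsins, rose by 4.13 ± 0.62 and 1.12 ± 0.16. These 5 hold without any 1 library, and leaving out each library in turn gave 5 to 9 risen inhibitors. Serpinb2, Serpinb3a, Serpinb3b, Serpinb6c and Serpinb12 rose by 0.89 to 2.22, and reads shared within the Serpinb and Stfa families may be split between members.

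Of 74 genes of the epidermal layers 7 rose and 2 fell, 9.46% and 2.7% against 8.09% and 9.74% of all genes. Basal genes had 3 risen of 13, Itga6, Krt5 and Trp63, and 0 without control 1. Trp63, the p53 relative that maintains basal cells, had 291 and 323 CPM in UVB, against 207 and 94.7 CPM in control libraries, so that its rise (1.01, adjusted p = 0.0415) was larger against control 1. The desmogleins split by member. Dsg1b rose, with 303 and 294 CPM in UVB and 123 and 74.7 CPM in controls (1.57 ± 0.23, adjusted p = 0.00417). Dsg3 rose as well, with 57.2 and 131 CPM in UVB against 14.4 and 27.8 CPM in controls (2.23 ± 0.44). Dsg1a, the more abundant, was not called, with 951 and 854 CPM in UVB and 855 and 1078 CPM in controls (-0.10, adjusted p = 0.739). Of 29 granular and cornified genes 2 rose and 1 fell, with a median of -0.52, and -0.01 without control 1. Rptn, repetin, had 785 and 802 CPM in UVB and 341 and 363 CPM in control libraries (1.17 ± 0.31, adjusted p = 0.0274). Lor, the main cornified envelope protein, had 269 and 237 CPM in UVB and 288 and 606 CPM in controls, with only control 1 apart.

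Stress keratins and wound genes gave a mixed picture. Of 8 stress keratins tested 1 rose and 1 fell (12.5% each, against 8.09% and 9.74% of all genes), with a median of -0.34. UVB libraries lay above both controls for 3 of them and below both for 4, against 30.1% and 30.3% of all tested genes. In some library 7 of the 8 stood above 1 count per base, near the ceiling described above. Krt6a, induced in wounded epidermis, had 425 and 421 CPM in UVB, against 265 and 152 CPM in control libraries (1.01 ± 0.25, adjusted p = 0.0204). Has3, a hyaluronan synthase, had 19.1 and 51.7 CPM in UVB and 3.59 and 2.49 CPM in controls (3.47 ± 0.52), which holds without any 1 library, and Cd44, the hyaluronan receptor, had 291 and 382 CPM in UVB against 191 and 148 CPM in controls (0.99). Among growth signals the EGFR ligands Ereg (540 and 493 CPM in UVB, 207 and 279 CPM in control libraries, 1.09 ± 0.20, adjusted p = 0.00788) and Epgn (112 and 200 CPM in UVB, 42.5 and 59.4 CPM in control libraries, 1.63 ± 0.36, adjusted p = 0.0132) rose, 2 of 8 ligands. Of 18 AP-1 and immediate early genes 0 were called by edgeR, 1 higher and 2 lower had an unadjusted p under 0.05, and DESeq2 called 1 lower. Mmp9, Mmp10 and Mmp14, proteases of the matrix, fell, Mmp9 to 3.37 and 4.73 CPM in UVB against 18.3 and 22.4 CPM in control libraries.

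Retinoid genes changed on both sides of the pathway, beside 8.09% of all tested genes that rose and 9.74% that fell. Lrat, which stores retinol as esters, had 110 and 155 CPM in UVB and 31.6 and 27.4 CPM in controls (2.16 ± 0.33, adjusted p = 0.00457), and the retinol oxidising enzyme Dhrs9 had 92.5 and 90.1 CPM in UVB against 41.4 and 36.5 CPM in controls (1.22 ± 0.19, adjusted p = 0.00478). Both hold without any 1 library. Cyp26b1, which degrades retinoic acid, had 40.9 and 27.9 CPM in UVB and 128 and 231 CPM in control libraries (-2.37 ± 0.34, adjusted p = 0.00417). Stra6, a retinol transporter, had 0.177 and 0.163 CPM in UVB against 5.20 and 4.98 CPM in controls, a ratio of 30.2 lower with a 95% exact interval of 7.85 to 258 for counting error only (adjusted p = 0.00739, edgeR). Of the 13 genes of polyamines and retinoids 6 rose and 2 fell, and without UVB 1 3 rose.

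Redox and amino acid genes split by member, beside 8.09% of all tested genes that rose and 9.74% that fell. Slc7a11, the cystine importer, had 36.7 and 40.3 CPM in UVB, against 5.74 and 6.64 CPM in control libraries (2.65 ± 0.34, adjusted p = 0.00302), and Gsto1, a glutathione transferase, had 173 and 171 CPM in UVB against 63.7 and 35.3 CPM in controls (1.76 ± 0.25). Both hold without any 1 library. Hmox1, heme oxygenase, fell, with 223 and 256 CPM in UVB and 353 and 627 CPM in controls, control 1 being the higher. Of 29 NRF2 and glutathione genes 4 rose and 4 fell (13.8% each), not far from the shares of all genes. Chac1, which degrades glutathione, had 61.1 and 52.2 CPM in UVB and 209 and 202 CPM in control libraries (-1.86 ± 0.22, adjusted p = 0.00251). Of the 19 ATF4 genes 4 rose and 1 fell (21.1% and 5.26%), and the lowest log2 value among them was -1.86. The risen ones included the serine synthesis genes Phgdh (2.15) and Psat1 (1.0). Of 16 unfolded protein and heat shock genes 0 were called by edgeR, 1 higher and 2 lower at an unadjusted p under 0.05, and 2 lower by DESeq2. Glycolysis rose in 6 of 21 genes, led by Hk2 with 209 and 232 CPM in UVB and 89.9 and 71.4 CPM in controls (1.44 ± 0.28), and in 0 without UVB 1. Chosen after their values were seen, the oxidase Duox1 and its maturation factor Duoxa1, which make hydrogen peroxide at the cell surface, were higher with UVB. Duox1 had 44.5 and 82.7 CPM in UVB and 9.51 and 8.30 CPM in control libraries (2.82 ± 0.41), and Duoxa1 had 103 and 132 CPM in UVB and 20.5 and 23.7 CPM in controls (2.42 ± 0.23), and both hold without any 1 library.

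Of 58 inflammatory genes 9 rose and 6 fell, 15.5% and 10.3% against 8.09% and 9.74% of all genes, and without UVB 1 there were 2 up and 2 down. Among chemokines the T cell attractant Cxcl9 had 27.3 and 5.88 CPM in UVB, against 0.538 and 0.830 CPM in control libraries (4.66 ± 1.16, adjusted p = 0.0218). The alarmin Il33 had 54.2 and 94.7 CPM in UVB and 22.4 and 16.2 CPM in controls (1.91 ± 0.37, adjusted p = 0.00911). Il1r2, the decoy receptor of IL-1, fell to 40.2 and 44.2 CPM in UVB against 128 and 196 CPM in control libraries (-1.93 ± 0.27, adjusted p = 0.00417), and Il34, the growth factor of Langerhans cells, to 50 and 54.5 CPM in UVB against 132 and 108 CPM in controls (-1.21 ± 0.17, adjusted p = 0.00417). Il19, a cytokine of the IL-10 family, had 4.61 and 25.9 CPM in UVB and 0.359 and 0 CPM in control libraries, a ratio of 62.7 higher with a 95% exact interval of 17.1 to 522 (adjusted p = 0.0103, edgeR). Hpgd, which inactivates prostaglandins, had 66.6 and 66.4 CPM in UVB and 13.5 and 22.0 CPM in controls (1.95 ± 0.27, adjusted p = 0.00417). Il1r2, Il34 and Hpgd hold without any 1 library. S100a7a, an alarm protein, fell to 6.73 and 2.12 CPM in UVB against 99.8 and 76.8 CPM in control libraries (-4.33 ± 0.64), while S100a8 rose to 76.2 and 80.6 CPM in UVB against 46.3 and 54.8 CPM in controls (0.64).

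Of 7 neutrophil markers 3 rose and 1 fell (42.9% and 14.3%, against 8.09% and 9.74% of all genes), and the list summed to 373 and 345 CPM in UVB, against 211 and 266 CPM in control libraries. The risen ones were S100a8 and Stfa2, which keratinocytes also express, and Trem1. Trem1, a receptor of neutrophils and monocytes, had 9.92 and 6.20 CPM in UVB and 0 counts in both control libraries, at least 21.2-fold higher (adjusted p = 0.00501, edgeR). Cd207, which defines Langerhans cells, had 24.6 and 26.6 CPM in UVB and 24.4 and 35.7 CPM in control libraries, which overlapped. Markers of dendritic epidermal T cells summed to 23.7 and 20.9 CPM in UVB and 41.5 and 84.7 CPM in controls, with 2 of 8 fallen, among them Cd3g at 6.55 and 5.55 CPM in UVB against 15.1 and 28.2 CPM in controls. Skint genes, keratinocyte surface proteins of which Skint1 selects those T cells in the thymus, had 1 risen and 6 fallen of 11, with 0 fallen without UVB 1 and 2 without control 0. Skint5 had 65.0 and 34.3 CPM in UVB and 271 and 204 CPM in control libraries (-2.26 ± 0.42, adjusted p = 0.00744), while Skint1 had 144 and 114 CPM in UVB against 84.9 and 66.8 CPM in controls (0.76 ± 0.16, adjusted p = 0.0129). Of the 9 T and NK markers 0 were called by edgeR, with 1 higher and 1 lower at an unadjusted p under 0.05 and 1 lower by DESeq2.

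Of 19 clock genes 3 rose and 5 fell, 15.8% and 26.3% against 8.09% and 9.74% of all genes, and 0 were called without UVB 1. Clock itself had 168 and 176 CPM in UVB, against 88.6 and 97.1 CPM in control libraries (0.89 ± 0.15, adjusted p = 0.00563). Per3 had 57.9 and 60.9 CPM in UVB and 104 and 99.6 CPM in controls (-0.78). The hour of sampling is not given in the labels used here, and its part in these values was not tested.

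Among the genes outside the lists with the largest rises were Ptprz1, a receptor phosphatase, with 31.0 and 32.0 CPM in UVB and 1.61 and 1.66 CPM in control libraries (4.25 ± 0.53, adjusted p = 0.00287), and Thbd, the thrombin receptor thrombomodulin, with 74.2 and 110 CPM in UVB against 4.31 and 9.96 CPM in controls (3.83 ± 0.45, adjusted p = 0.00259). Mcam, an adhesion molecule, had 22.1 and 47.7 CPM in UVB and 1.61 and 3.74 CPM in controls (3.86 ± 0.50). The 3 genes hold without any 1 library. Csdc2, an RNA-binding protein, fell to 1.24 and 0 CPM in UVB against 63.2 and 24.5 CPM in control libraries (-6.16 ± 0.89, adjusted p = 0.00417), and it too holds without any 1 library.

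How far the week 2 response differs from the later ones was tested as the week 2 effect minus the mean of the week 15 and week 25 effects, each against its own controls. This difference was called for 153 genes (1.14%) in the positive direction and 112 (0.831%) in the negative. It rests heavily on single libraries, with 2 positive and 0 negative genes without UVB 1, 3 and 2 without UVB 0, 21 and 22 without control 1, and 1664 and 1165 without control 0. By separate tests, 636 genes were called up and 911 down at week 2 and at neither later week, 122 and 117 at every week, and 131 of the week 2 calls had the opposite called sign at week 25. Of 62 mitosis genes 0 were called for the difference between weeks by edgeR, 18 positive and 1 negative had an unadjusted p under 0.05 and DESeq2 called 5 positive. The mitosis list had medians of 2.32, 1.32 and 1.25 at weeks 2, 15 and 25 and 51, 5 and 29 genes called up. Summed over the list, UVB libraries had 1433 and 1903 CPM at week 2 and 2530 and 2790 CPM at week 15. Controls had 617 and 610 CPM, then 923 and 1767 CPM. The lower median at week 15 thus came with higher sums in both groups. At week 25 the sums were 1757 and 1440 CPM in UVB and 888 and 875 CPM in controls. Over all tested genes 1.85% were called up and 1.64% down at week 15, and 10.6% and 10.9% at week 25. Krtap medians were -5.50, -3.07 and -2.59, with 49, 9 and 19 genes called down. Krtap sums in controls were 4605 and 4468 CPM at week 2, 2264 and 1374 CPM at week 15, and 1687 and 641 CPM at week 25. Over the same weeks the Krtap sums in UVB libraries ranged from 50.8 to 371.5 CPM.

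Eda2r had the clearest decline among p53 targets. It had 77.1 and 87.0 CPM in UVB and 2.69 and 5.40 CPM in control libraries at week 2, 30.9 and 32.5 CPM in UVB and 6.43 and 9.47 CPM in controls at week 15, and 10.3 and 15.8 CPM in UVB and 11.2 and 15.4 CPM in controls at week 25, giving effects of 4.46, 1.98 and -0.04. The difference was 3.49 ± 0.43 (adjusted p = 0.0112, edgeR). Ccng1 differed by 1.45 (adjusted p = 0.0301), and the other tested targets were not called by this contrast.

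Of 40 genes in the interferon response list, 0 were called at week 2 by edgeR, with 4 higher and 7 lower at an unadjusted p under 0.05 and 3 higher and 3 lower by DESeq2. The list median was 0.06, and it lay at -0.40 without UVB 0, -0.17 without control 1 and -0.21 with the week 2 libraries alone (30 genes). Interferon-inducible genes outside this list did rise at week 2, among them Cxcl9 as given above. The list had 17 members called up at week 15, with a median of 2.73, and 29 at week 25, with a median of 2.67. Oas2, a sensor of double-stranded RNA (chromosome 5, 120730333 to 120749848), had 4.25 and 1.63 CPM in UVB and 5.02 and 2.91 CPM in control libraries at week 2, and its effects were -0.54, 3.72 and 3.66, a difference of -4.22 (adjusted p = 0.043). Mx2, Oas1b, Oas1g and Stat2 were the other members called by this contrast. Among antigen presentation genes in the Langerhans list, H2-Ab1 had 87.2 and 73.1 CPM in UVB and 104 and 200 CPM in controls at week 2 (-0.91, adjusted p = 0.0655), effects of 0.67 and 1.47 later, and a difference of -1.97 (adjusted p = 0.035), and Cd74, H2-Aa and H2-Eb1 were called in the same direction.

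**Figure D5:**
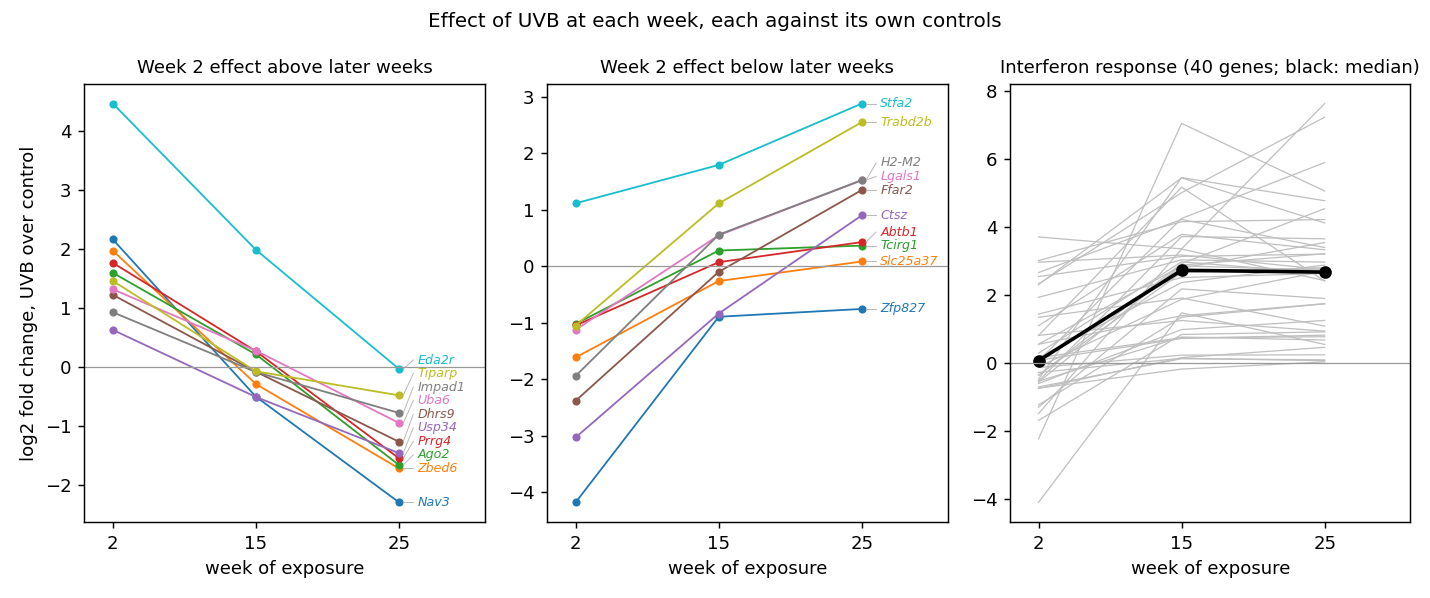
Fitted log2 UVB over control at weeks 2, 15 and 25 for the 10 genes in each direction with the smallest p for the difference between weeks (left and middle) and for 40 interferon response genes (right, grey lines, with their median in black). Eda2r had effects of 4.46, 1.98 and -0.04, and the interferon median lay at 0.06, 2.73 and 2.67.

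For the genes called for the difference between weeks, the levels of both groups are given, since either group can make such a difference. Of the 153 positive genes, week 2 UVB libraries stood above all 4 later UVB libraries in 93 (60.8%), and week 2 controls stood below all 4 later controls in 136 (88.9%). The shares over all tested genes were 23.0% and 19%. The called genes were chosen by these same values, so larger shares among them follow from the choice and test nothing. Of the 112 negative genes, week 2 UVB libraries lay below all later UVB libraries in 97 (86.6%) and week 2 controls above all later controls in 66 (58.9%), against 23.8% and 18.4% of all genes. Zbed6, a transcription factor, had 62.2 and 66.4 CPM in UVB and 20.3 and 11.2 CPM in control libraries at week 2, but 27.6 and 38.4 CPM in UVB and 103 and 115 CPM in control libraries at week 25. Ctsz, a cathepsin, had 11.9 and 11.3 CPM in UVB and 85.1 and 105 CPM in controls at week 2, and 38.8 and 27.7 CPM in UVB and 23.3 and 12.4 CPM in controls at week 25. Slc7a11 had 36.7 and 40.3 CPM in UVB and 5.74 and 6.64 CPM in control libraries at week 2, and 15.9 and 20.6 CPM in UVB and 13.2 and 21.0 CPM in controls at week 25, so both groups stood apart from their later counterparts. Exposure time and whatever else differed between the mice of each week cannot be told apart in this design.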

How the data were processed

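RNA was sequenced from skin of SKH-1 mice, extracted with Qiagen AllPrep kits and made into libraries with an Illumina protocol, per the labels' protocols. The deposited values are whole-number read counts per gene in 1 table, which the authors made from alignments without duplicates, per the file headers. HISAT2, Picard, featureCounts and DESeq2 on mm10 are named in the submitters' processing notes without versions. The sources used here do not give the strand setting or how multi-mapping reads were counted, so values of near-identical, overlapping or antisense genes are uncertain. DNA methylation data were not analysed here.

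Counts were fitted in R 4.3.3 with edgeR 4.0.16. The 12 epidermis libraries had 1 mean per group, TMM scaling, filterByExpr (minimum count 10, minimum total 15), a quasi-likelihood F test with 6 residual degrees of freedom and Benjamini-Hochberg adjustment over 13478 genes. The biological coefficient of variation was 19.1%. Calls are at an adjusted p under 0.05. Log2 values carry a prior count of 0.125. A group at 0 was set to 3 counts over the group for a bound, and ratios of few counts have exact 95% intervals that cover counting error only. Replicates differed beyond sampling noise (chi-square per degree of freedom 5.2 in the UVB pair, 19.7 in the control pair). Alternatives were RLE scaling, DESeq2 1.42.0, no filter, week 2 libraries alone, all 16 libraries, a replicate block, thinning to 2905165 counts, offsets that follow abundance, and leaving out each week 2 library.

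The text names the 15 largest rises and 15 largest falls among called genes whose mean reached 5 CPM, with no overlap and a gene name that is not a predicted model. It also names list members called at week 2, with members that were not called only by value, of every marker list the most abundant gene, and the 10 genes in each direction with the smallest p for the difference between weeks. Not all genes so taken are described, and some are not reported here. The members and lists were chosen with earlier results of these data known.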

Additional observations from a re-analysis of the deposited data

Results flagged for a closer look

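The effect of UVB at week 2 differed from the mean of the effects at weeks 15 and 25, by edgeR's test of that difference with Benjamini-Hochberg adjustment, for the genes below, which were also called at week 2. Each value is a log2 difference, week 2 minus later, and none is explained here.

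The positive ones were Zbed6 at 2.98 ± 0.30 (adjusted p = 0.00478), Ago2, of the RNA silencing complex, at 2.32 ± 0.23, Tiparp, an ADP-ribosyltransferase induced through the aryl hydrocarbon receptor, at 1.74 ± 0.20, Dhrs9 at 1.90 ± 0.23 and Eda2r at 3.49 ± 0.43. Nav3 differed by 3.56 ± 0.44, Prrg4 by 2.41 ± 0.33, Usp34, a deubiquitinase, by 1.61 ± 0.23, Impad1 by 1.36 ± 0.19 and Uba6, an activating enzyme of ubiquitin, by 1.65 ± 0.24. In all 10 the week 2 controls stood below all 4 later controls, and in 6 of 10 the week 2 UVB libraries stood above all 4 later UVB libraries. The genes were chosen by these values, so the counts describe them and are no test.

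The negative ones were H2-M2 at -2.98 ± 0.37, Ctsz at -3.06 ± 0.39, Trabd2b at -2.88 ± 0.39, Ffar2, a receptor of short-chain fatty acids, at -3.01 ± 0.44 and Slc25a37, the mitochondrial iron importer, at -1.53 ± 0.22. Lgals1, galectin 1, differed by -2.16 ± 0.34, Tcirg1, of the vacuolar proton pump, by -1.34 ± 0.21, Zfp827 by -3.36 ± 0.54, Stfa2 by -1.22 ± 0.20 and Abtb1 by -1.30 ± 0.22. Stfa2 rose at each week, with effects of 1.12, 1.80 and 2.88, and the other 9 fell at week 2. In 9 of 10 the week 2 UVB libraries lay below all later UVB libraries, and in all 10 the week 2 controls lay above all later controls. These counts too come from the values that chose the genes.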

How the results depend on the processing

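RLE scaling, offsets that follow abundance and thinning to the shallowest depth left the counts at week 2 within 1.5 times, and DESeq2, the fit without a filter, the fit of all 16 libraries and the replicate block did so too (762 to 1321 genes up and 984 to 1695 down, against 1090 and 1313). Thinning acted on counts made after duplicates were removed, so it cannot test the ceiling on counts per base. With the 4 week 2 libraries alone 241 genes rose and 443 fell, with 5 p53 targets up and 21 hair shaft and root sheath genes down. The difference between weeks cannot be computed there, and elsewhere gave 547 positive and 423 negative genes with DESeq2, 400 and 376 without a filter, 23 and 34 with all 16 libraries, 81 and 57 after thinning, and 15 and 11 with the replicate block, against 153 and 112.

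Leaving out each week 2 library leaves 1 sample in its group, which is then assumed to vary like the other groups, and gave 71 to 2308 genes up and 54 to 2069 down, 2 to 1664 positive and 0 to 1165 negative differences between weeks, 4 to 19 p53 targets up, 7 to 49 mitosis genes up and 1 to 36 hair genes down. The lowest counts came without UVB 1 for all of these and the highest without control 0, except for hair genes, where 30 were called without control 0 and 36 without UVB 0 or control 1.

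Deviations of same-numbered UVB and control libraries had a correlation of -0.087 at week 2, -0.0335 at week 15 and 0.241 at week 25. Only week 25 was above 0.1, so the numbers were not taken to pair the samples. With the replicate block 762 genes rose and 988 fell. None of the counts above changed direction, nor did any of the 349 named genes called at week 2 in the alternatives that tested it, whereas the interferon median changed sign as given in the report. Of the 349, 347 were called with DESeq2, 298 with the replicate block and 54 without UVB 1. With 2 libraries a group and 1 of them at 2905165 counts, changes of genes with few reads are known less precisely than their fitted values.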
